A study of Mus musculus with 60 samples.

Results

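The cadherin superfamily genes examined here were those whose mouse symbol starts with Pcdh, the protocadherins, or is Cdh followed by a number, with the vascular endothelial cadherin Cdh5 left out. On the arrays 55 such genes had a probe set (a group of short probes against the same transcript) annotated with that symbol alone. Each gene was represented by its brightest probe set, and it was followed if the log2 intensity reached at least 4 in at least 6 of the 60 arrays. That left 37 genes, 13 of them clustered protocadherins (12 Pcdhb genes and Pcdhgc4) and 24 others (11 solitary protocadherins and 13 cadherins). The 18 genes that did not pass were Cdh3, Cdh15, Cdh16, Cdh17, Cdh18, Cdh23, Cdh26, Pcdh12, Pcdhb1, Pcdhb4, Pcdhb5, Pcdhb6, Pcdhb8, Pcdhb10, Pcdhb11, Pcdhb13, Pcdhb14 and Pcdhb18.

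Cortical RNA was taken from males of 30 inbred mouse strains, aged 10 to 11 weeks per the labels. Mice of the control group drank plain water (0 mg/kg fluoxetine), and those of the treated group took in 18 mg/kg of fluoxetine a day by mouth for 21 days. Fluoxetine is an antidepressant that blocks the serotonin transporter. Each strain gave 1 water array and 1 fluoxetine array, each of RNA pooled from 3 mice, so there were 30 arrays a group and no measure of the spread between animals.

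Cadherins are calcium-dependent adhesion proteins of the cell surface. Classical cadherins bind the same cadherin on the neighbouring cell and connect through catenins to actin, and different brain areas and cell layers use different sets of them. Clustered protocadherins lie in tandem arrays of similar exons, each with a promoter of its own. A neuron switches on a small random choice of these promoters, and the resulting mixture of proteins gives the cell a surface identity with which its own branches recognise and avoid each other. Solitary protocadherins lie outside these arrays and have roles in axon growth, cell migration and synapse remodelling.

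All 60 arrays had median intensities between 39.1 and 43.1, correlated at 0.966 to 0.997 with each other, and none was a copy of another. The neuronal markers (Snap25, Syt1, Rbfox3, Nefl, Slc17a7, Gad1 and Gad2) summed to intensities of 109962 to 125591 in the water arrays and 108798 to 128191 in the fluoxetine arrays. Markers of tissue next to the cortex varied far more: the meningeal list summed to 1251 to 5305 in the water arrays, and the choroid plexus list to 59.2 to 34980. In bulk RNA, fewer cells of a type and less RNA per cell cannot be told apart.

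At the brightest probe set of each gene, the widest differences between strains were in protocadherins of the Pcdhb cluster. Other probe sets of Pcdh10 and Cdh7, described below, ranged over up to 4.75 and 3.39 on the log2 scale. Pcdhb9 and Pcdhb3 had the widest ranges of strain means among the 37 genes at the probe sets used, 5.67 and 3.73 on the log2 scale. Of the 11886 genes tested, 59 and 193 had wider ones. By limma's F-test between strains, with Benjamini-Hochberg adjustment at 0.05, 33 of the 37 genes (89.2%) differed. Over all genes tested 88.3% did, so the share of the cadherin genes was near the background. The 4 that missed the threshold were Cdh1, Pcdhb19, Cdh20 and Pcdh8. Of the clustered genes 12 of 13 passed and of the others 21 of 24.

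The size of the strain differences is described by the range of strain means. A range above 1, a change of more than 2-fold between the extreme strains, was found in 7 of the 13 clustered genes and 11 of the 24 others, against 27.4% of all genes. The median range was 1.04 in clustered genes, 0.84 in the others and 0.68 over all genes. Clustered genes also had dimmer probe sets, with a median of the mean log2 intensities of 7.81, against 9.80 in the others and 9.27 over all genes. A mean under 8 was found in 8 of the 13 clustered genes, 6 of the 24 others and 3582 of all 11886. The part of signal level in these ranges was not tested. The agreement between the separate water and fluoxetine pools of a strain, expressed as an intraclass correlation, had a median of 0.72 in clustered genes, 0.64 in the others and 0.59 over all genes. It exceeded 0.9 in 3 of the 37 genes (8.11%), Pcdhb3, Pcdhb9 and Pcdh17, against 5.68% of all genes. No test compared clustered with other genes.

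**Figure D1:**
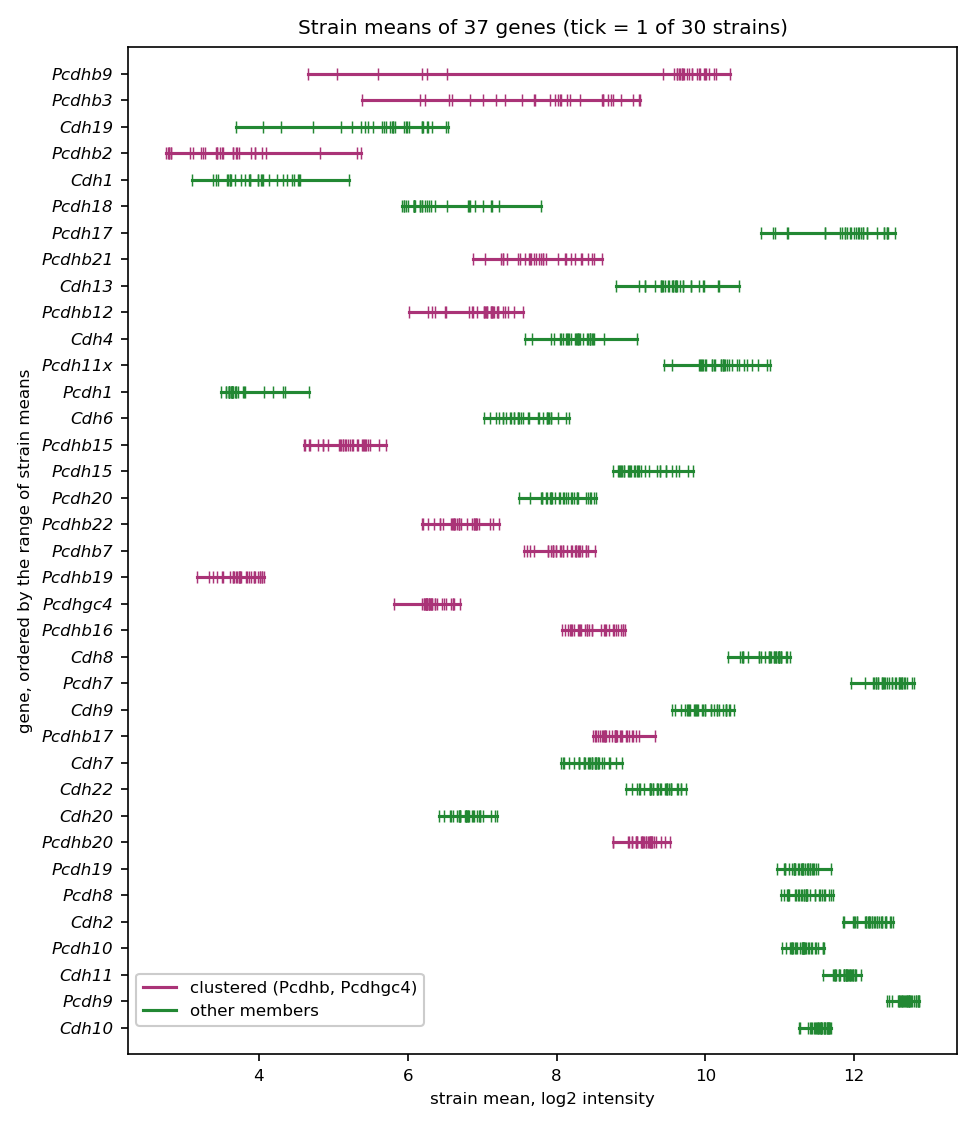
Strain means of the 37 genes (x axis, log2 intensity; 1 tick per strain, the mean of its water and fluoxetine array), ordered by range, with clustered protocadherins and other genes in separate colours. At the probe sets used, Pcdhb9 and Pcdhb3 have the widest spreads, 5.67 and 3.73, while Cdh10, Pcdh9 and Cdh11 span 0.51 or less.

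Pcdhb9, a clustered protocadherin, fell into separate low and high strains. In the water arrays its log2 intensity was lowest at 3.999, had a median of 9.77 and was highest at 10.36, and in the fluoxetine arrays it was 4.64, 9.74 and 10.32. The low strains were 6: AKR/J at 3.999 in water and 6.11 in fluoxetine, LP/J at 4.69 and 4.64, 129S1/SvImJ at 5.84 and 6.69, FVB/NJ at 5.84 and 5.37, SJL/J at 6.52 and 5.85, and SWR/J at 6.83 and 6.24. The other 24 strains lay at 9.52 to 10.36 in water, so a gap of 2.70, or 6.48-fold, held no strain. This split was chosen on the water arrays. In the fluoxetine arrays, separate pools that the choice did not use, 30 of 30 strains fell on the same side, with the low strains at 4.64 to 6.69 and the high strains at 9.35 to 10.32.

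Pcdhb12, another clustered gene of the same array, was lowest in the same 6 strains. In water these lay at 6.21 to 6.67 and the other 24 strains at 6.81 to 7.77, and in fluoxetine at 5.83 to 6.46 against 6.61 to 7.36. The groups thus did not overlap in either treatment, although the gap was far smaller than for Pcdhb9. How many of all genes separate the same 6 strains was not counted, so this match cannot be set against a background. Within the 24 strains with high Pcdhb9 the genes' strain means correlated at Pearson's r = 0.33 and Spearman's rho = 0.40 (r = 0.24 without the 2 strains farthest from the median). In the RefSeq gene order, Pcdhb10 and Pcdhb11 lie between these genes, and neither passed the filter on low values.

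Pcdhb3 followed another pattern. Its log2 intensity was lowest at 5.62, had a median of 7.98 and was highest at 9.22 in water, and was 5.16, 8.03 and 9.15 in fluoxetine. The lowest strain means were 5.39 in SM/J, 6.17 in C57BLKS/J, 6.23 in MRL/MpJ, 6.55 in LG/J and 6.60 in P/J. The highest were 9.12 in 129S1/SvImJ, 9.11 in LP/J and 9.03 in DBA/2J, so LP/J and 129S1/SvImJ were low for Pcdhb9 and high for Pcdhb3. The strains formed a gradient in water, with no gap of 0.5 or more that left at least 3 strains on each side.

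Pcdhb2, the neighbour of Pcdhb3 in the RefSeq gene order, had low values in many of the same strains. The 8 strains with the lowest Pcdhb3 means (SM/J, C57BLKS/J, MRL/MpJ, LG/J, P/J, C57BL/6J, BTBRT T(+) tf/J and C57BR/cdJ) were also the 8 lowest for Pcdhb2. The same held in the water arrays alone, and 6 of 8 were shared in the fluoxetine arrays. The number 8 was chosen after the values were seen. Of the 6 lowest strains of each gene, 5 were shared on the means, 4 in water and 5 in fluoxetine. Pcdhb2 reached a log2 intensity of 4 in only 12 of the 60 arrays, so it passed the filter through the strains where it was high. At the other end Pcdhb2 was highest in BUB/BnJ at 5.37, MA/MyJ at 5.32 and 129S1/SvImJ at 4.82, against a median of 3.49. It was under 3 in 6 strains, close to the lowest value of the file, 2.07, where differences have no order, so the overlap of the lowest strains is a rough description.

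**Figure D2:**
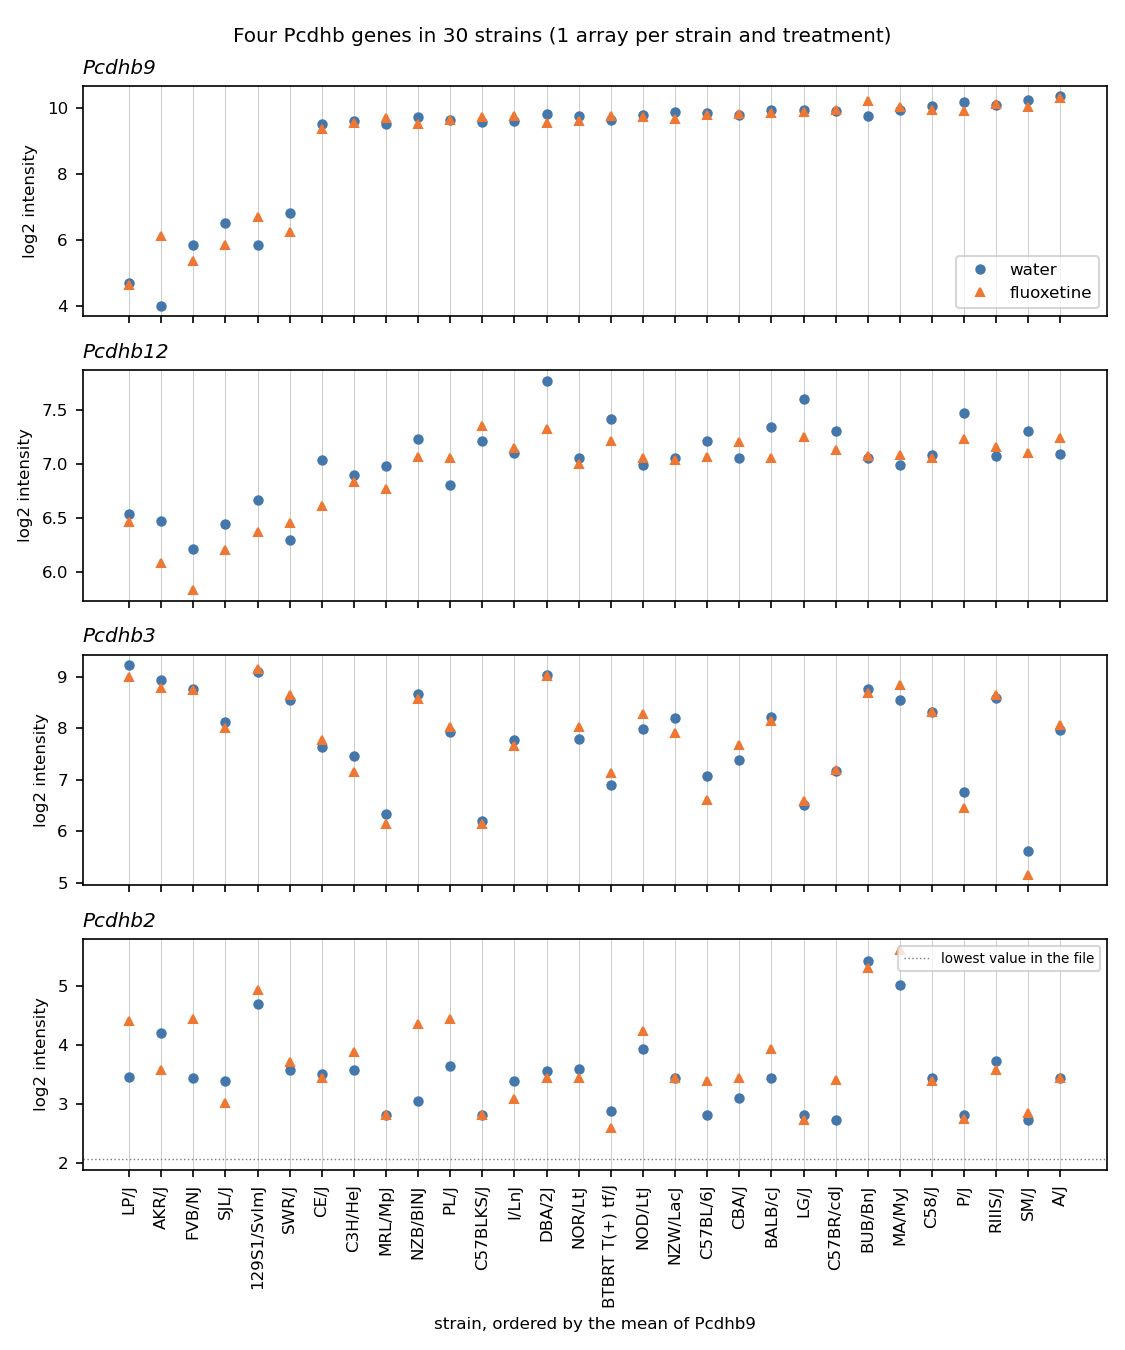
Log2 intensity of Pcdhb9, Pcdhb12, Pcdhb3 and Pcdhb2 (y axes) in each strain (x axis, ordered by the mean of Pcdhb9), with circles for water and triangles for fluoxetine, 1 array each. The 6 strains on the left are low for Pcdhb9 and Pcdhb12 in both treatments, and other strains, with SM/J at 5.39 the lowest, are low for Pcdhb3.

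Of the remaining clustered genes, Pcdhb21 had the widest range, 1.73, from 6.88 in DBA/2J to 8.61 in A/J. Its other probe set ranged over 0.96 and correlated with it at r = 0.47 over strains (rho = 0.50, r = 0.50 without the 2 strains farthest from the median; permutation p adjusted over the 28 probe set pairs = 0.0153). Pcdhb20, Pcdhb17, Pcdhb16 and Pcdhb7, which with Pcdhb9 had the brightest probe sets of the clustered genes, had mean log2 intensities of 9.17, 8.79, 8.50 and 8.09 and ranges of 0.76, 0.83, 0.84 and 0.96. An intensity describes a probe set, and it does not rank genes by their transcript number. Pcdhgc4, a member of the gamma cluster that is known for the survival of interneurons, ranged over 0.90, from 5.81 in NOD/LtJ to 6.71 in C58/J.

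Strain patterns were also compared between pairs of genes. A correlation over strain means above 0.5 was seen in 11 of 78 pairs of clustered genes, 14 of 276 pairs of other genes and 6 of 312 mixed pairs, with median r of 0.18, 0.05 and 0.06. The strains share ancestors and the clustered genes share sequence, so these counts are a description without a test. Beside the clustered pairs described above, the closest was Pcdhb20 with Pcdhb22 (r = 0.70, rho = 0.63, r = 0.65 without the 2 strains farthest from the median). The closest pair outside the cluster was Cdh2, the main classical cadherin of neurons, with Pcdh7 (r = 0.72, rho = 0.69, r = 0.66 without these strains). Other probe sets did not show these patterns closely: that of Cdh2 correlated at r = -0.01 with the one used, and those of Pcdh7 at 0.39 and 0.15.

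The alpha cluster could be seen only as a whole. No Pcdha gene had a probe set of its own, and 6 probe sets were annotated with several Pcdha genes at once. The 3 that carried 14 of these genes had mean log2 intensities of 12.22, 11.00 and 9.91 and moved over only 0.30, 0.24 and 0.57 between strains. The 3 that carried 9 genes had means of 5.59, 3.61 and 3.52 and ranges of 0.85, 1.34 and 0.70. The first 3 ranges were thus below the median range over all genes, 0.68, and the other 3 above it. The probe set with a mean of 5.59 was lower with fluoxetine in 21 of 30 strains, with a mean difference of -0.17, and this difference was not tested. Single alpha genes were not measured here.

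Among the solitary protocadherins, Pcdh17, a regulator of presynaptic vesicle assembly in corticostriatal circuits, was low in 5 strains at the probe set used. In water its log2 intensity was lowest at 10.59, had a median of 12.03 and was highest at 12.52, and in fluoxetine it was 10.90, 12.03 and 12.59. The strain means were 10.74 in I/LnJ, 10.91 in C57BR/cdJ, 10.93 in NOD/LtJ, 11.10 in LP/J and 11.11 in NZW/LacJ. The next strain was C58/J at 11.61. The same 5 strains were lowest in water, at up to 11.11 against 11.48 or more in the others, and in fluoxetine, at up to 11.18 against 11.69 or more. Another probe set of Pcdh17 ranged over 0.92 instead of 1.81. Its 4 lowest strains were C57BR/cdJ, I/LnJ, NZB/BlNJ and NOD/LtJ, so it did not give the same group of 5. The strain means of both correlated at r = 0.66 (rho = 0.58, r = 0.51 without the 2 strains farthest from the median; permutation p adjusted over the 28 pairs = 0.000156).

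Pcdh18, a solitary protocadherin of the delta group, was the only one of the 37 genes (2.70%) that differed between families of related strains, where 2.27% of all genes did. For this comparison 15 strains were placed in 4 families by their known breeding history, and each strain's mean of both arrays was a replicate. In water Pcdh18 was lowest at 5.84, had a median of 6.21 and was highest at 8.25, and in fluoxetine it was 5.77, 6.22 and 7.39. The family means were 7.31 ± 0.44 (SD, n = 3) in the 129S1-related strains (129S1/SvImJ, LP/J and BTBRT T(+) tf/J) and 6.95 ± 0.16 (SD, n = 4) in the C57/C58-related strains (C57BL/6J, C57BLKS/J, C57BR/cdJ and C58/J). They were 6.12 ± 0.14 (SD, n = 4) in the strains descended from the Bagg albino (A/J, BALB/cJ, C3H/HeJ and CBA/J) and 6.10 ± 0.12 (SD, n = 4) in the Swiss-derived strains (FVB/NJ, NOD/LtJ, SJL/J and SWR/J). Every strain of the first 2 families lay above every strain of the other 2. That describes the same strain means the test used, and how many of all genes separate these families so was not counted. The limma F-test between families gave F = 28.6 with an adjusted p of 0.00152, and of 0.0286 in the water arrays alone. Of the strains in no family, NZW/LacJ at 7.12 and P/J at 6.84 lay in the upper range as well. Strains of a family are relatives and not independent draws.

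**Figure D3:**
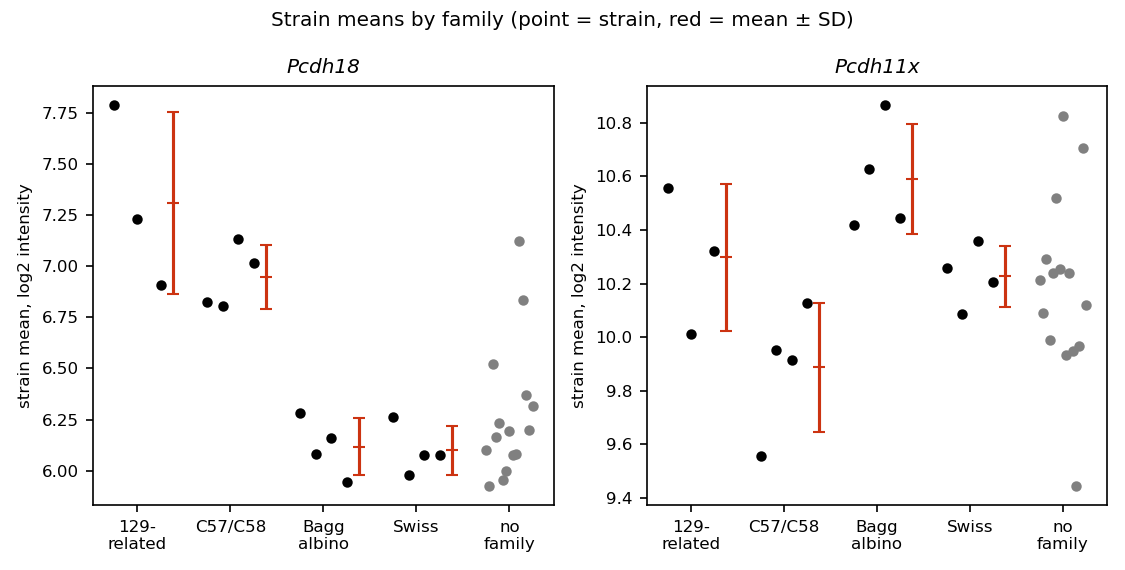
Strain means (y axis, log2 intensity; points are strains, each the mean of 2 arrays) of Pcdh18 and Pcdh11x in the 4 families and in the 15 strains of no family, with the family mean and SD in red. For Pcdh18 the 129S1-related and C57/C58 strains lie above all Bagg albino and Swiss strains, and for Pcdh11x the limma test between families did not pass (adjusted p = 0.0718).

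Pcdh11x, an X-linked solitary protocadherin, came next. Its family means were 10.59 ± 0.21 (SD, n = 4) in the Bagg albino strains, 10.30 ± 0.27 (SD, n = 3) in the 129S1-related, 10.23 ± 0.11 (SD, n = 4) in the Swiss and 9.89 ± 0.24 (SD, n = 4) in the C57/C58 strains, with a limma adjusted p of 0.0718. Over all strains it ran from 9.44 in P/J and 9.56 in C57BL/6J to 10.87 in C3H/HeJ. A second probe set gave nearly the same order of strains (r = 0.94, rho = 0.91, r = 0.91 without the 2 strains farthest from the median, adjusted permutation p = 5.6e-05). Of the other genes with small p-values between families, Cdh10 had an adjusted p of 0.135, Cdh1 of 0.136, Pcdhb9 of 0.151 and Pcdhb12 of 0.166. For Pcdhb9 the low strains were 3 of the 4 Swiss strains, 2 of the 3 129S1-related strains and AKR/J, while NOD/LtJ at 9.75 and BTBRT T(+) tf/J at 9.71 lay far from the other strains of their families. Each of the 15 strains was left out in turn, and in 13 of these fits Pcdhb9 was not called (limma adjusted p of 0.201 to 0.248). It was called without either strain that lay far from its family, which gives no support to a family difference: the limma adjusted p was 0.0376 without NOD/LtJ, as for Pcdhb12, and 0.0179 without BTBRT T(+) tf/J. The count of the 37 genes called was 3 without NOD/LtJ, beside 2.21% of all genes, and 4 without BTBRT T(+) tf/J, beside 2.78% of all genes, with Pcdh11x (adjusted p = 0.0392) among the latter.

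The promoters of Pcdh17 and Pcdh18, the solitary protocadherins with the widest ranges at the probe sets used, are shown because the strain whose genome was read for the reference, C57BL/6J, was itself on the arrays. It lay above the median strain for both, with a mean log2 intensity of 12.31 for Pcdh17 (median 12.01) and 6.83 for Pcdh18 (median 6.21). The sequences are those of RefSeq on GRCm38.p6, from 250 bases before to 50 bases after the annotated start, 5′ to 3′ on the gene's strand. Pcdh17 lies on the plus strand of chromosome 14 (chr14:84443313-84443612) and Pcdh18 on the minus strand of chromosome 3 (chr3:49757267-49757566). Capitals mark the letters CCAAT or their reverse complement ATTGG, the core of the CCAAT box.
Pcdh17: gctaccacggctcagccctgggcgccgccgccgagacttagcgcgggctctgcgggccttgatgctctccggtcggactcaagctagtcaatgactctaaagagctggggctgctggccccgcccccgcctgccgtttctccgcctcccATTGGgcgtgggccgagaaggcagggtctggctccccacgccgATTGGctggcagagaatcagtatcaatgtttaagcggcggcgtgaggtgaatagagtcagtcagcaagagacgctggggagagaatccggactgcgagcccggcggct
Pcdh18: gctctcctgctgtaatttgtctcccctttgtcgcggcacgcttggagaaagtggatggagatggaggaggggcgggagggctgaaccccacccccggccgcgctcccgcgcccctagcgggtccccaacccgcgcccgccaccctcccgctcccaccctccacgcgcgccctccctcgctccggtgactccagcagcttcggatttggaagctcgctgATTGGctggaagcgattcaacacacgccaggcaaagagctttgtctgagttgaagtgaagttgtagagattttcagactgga
The Pcdh17 window held 2 such matches and the Pcdh18 window 1, all as ATTGG, and 37.4% of the 32851 promoters of this length in the table held at least 1. Neither held TATAAA on either strand, the core of a TATA box, which 13.6% of all promoters did. GC made up 65% and 63% of the bases, against a median of 52.7%, and the windows held 26 and 23 CpG dinucleotides, against a median of 7. The matches describe the reference letters, and the sequences of the other strains were not analysed here.

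Among the cadherins, Cdh19, a type II cadherin known from the Schwann cell lineage, had the widest range at the probe sets used. Its log2 intensity in water was lowest at 3.90, had a median of 5.79 and was highest at 6.56, and in fluoxetine it was 3.50, 5.77 and 6.59. NOD/LtJ at a strain mean of 3.70, its relative NOR/LtJ at 4.06 and A/J at 4.29 were low, and BALB/cJ was highest at 6.54. In water a gap of 0.88 set these 3 strains apart. In fluoxetine 29 of 30 strains fell on the same side, and C3H/HeJ, at 5.19 in water and 4.25 in fluoxetine, crossed. Such a split in the water arrays was found in 2 of the 37 genes (5.41%), Pcdhb9 and Cdh19, and in 3.32% of all genes.

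Cdh13, a cadherin anchored to the membrane by a lipid instead of a transmembrane domain, ranged from 8.79 in SJL/J to 10.45 in C58/J. Its other probe sets had the same lowest and highest strain (r = 0.89 and 0.66, rho = 0.83 and 0.54, r without the 2 strains farthest from the median = 0.85 and 0.39, adjusted permutation p = 5.6e-05 and 0.000336). Cdh4, or R-cadherin, ranged from 7.58 in LP/J and 7.67 in 129S1/SvImJ to 9.09 in P/J. LP/J and 129S1/SvImJ are related strains, but Cdh4 did not pass limma's test between families (adjusted p = 0.516). Its other probe set also had P/J highest, at 8.93, but NZB/BlNJ lowest, at 6.94. The next lowest there were LP/J, CBA/J and NOD/LtJ, and 129S1/SvImJ was not among these. The strain means of both probe sets correlated at r = 0.75 (rho = 0.75, adjusted permutation p = 0.000105). Without the 2 strains farthest from the median r was 0.62. Cdh1, the epithelial cadherin, spanned 2.12, from 3.10 in SM/J to 5.21 in C3H/HeJ, and limma's strain test gave an adjusted p of 0.131, with a spread of 0.54 between the pools of a strain (SD, after the mean treatment difference was removed). The meningeal markers varied over the arrays as given above, and their part in the values of Cdh1 was not tested.

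The genes in between varied over smaller ranges. Pcdh1 ranged over 1.17, from 3.50 in NOR/LtJ to 4.67 in SJL/J, at low intensities. Cdh6, a type II cadherin that marks single cortical areas and layers in development, ranged over 1.14 and was highest in MRL/MpJ at 8.17. Pcdh15 and Pcdh20 ranged over 1.08 and 1.04, and both were highest in C58/J. Pcdhb15 and Pcdhb22 ranged over 1.09 and 1.04 and Pcdhb20 over 0.76, and all 3 were highest in 129S1/SvImJ. Cdh8, a type II cadherin of corticostriatal neurons, ranged over 0.84 and was lowest in P/J at 10.30. Pcdh19, a solitary protocadherin whose human counterpart is a gene of epilepsy in girls, ranged over 0.73, and Cdh22 over 0.81, Pcdh7 over 0.84 and Cdh2 over 0.68.

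At the other end, Cdh10, Pcdh9, Cdh11 and Pcdh10 had the narrowest ranges of the 37 genes at the probe sets used, 0.43, 0.43, 0.51 and 0.55. All 4 still differed between strains (limma adjusted p of 0.00849, 0.00110, 0.000344 and 1.19e-07). Cdh10 and Cdh11 are type II classical cadherins and Pcdh9 and Pcdh10 are solitary protocadherins of the delta group. Pcdh9, Pcdh7, Cdh2, Pcdh17 and Cdh11 had the brightest probe sets outside the cluster, at mean log2 intensities of 12.70, 12.47, 12.23, 11.90 and 11.88.

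A second measure of the same gene was available for 17 of the 37 genes, in 28 pairs of probe sets. The strain means correlated positively in 24 pairs, with a median r of 0.55, and 21 pairs had an adjusted permutation p under 0.05, 1 of them with a negative r. The negative pair was from Pcdh10. The probe set used ranged over 0.55, while the other ranged over 4.75: 3.32 in CE/J, 5.10 in RIIIS/J, 5.93 in MA/MyJ and 6.10 in NZW/LacJ, against a median of 7.81 (r = -0.49, rho = -0.09, r = -0.40 without the 2 strains farthest from the median). Likewise 2 other probe sets of Cdh7, a type II cadherin, ranged over 3.39 and 2.18 against 0.81 for the one used (r = 0.16 and 0.12). Of the other genes with narrow ranges, Cdh10 had another probe set that ranged over 1.54, with CE/J highest where the probe set used had it lowest (r = -0.06), and Pcdh9 had one that ranged over 1.76 (r = 0.60). A narrow range at the probe set used thus did not hold for every probe set of the gene. Pcdhb9, Pcdhb12, Pcdhb3, Pcdhb2, Cdh19 and Pcdh18 had no second probe set that passed. Whether sequence differences between strains under the probes moved these values was not tested.

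None of the 37 genes passed limma's test of fluoxetine against water, with strain as a block and an adjusted p under 0.05, where 0.0589% of all genes (7 of 11886) did. At an unadjusted p under 0.05, 11 of the 37 (29.7%) were called, 7 higher and 4 lower, against 15.3% of all genes. The clustered genes were more often lower than higher with fluoxetine, 10 against 3, with a median difference of -0.07; 76.9% of them were lower, against 53.1% of all genes. The others were higher in 13 and lower in 11, with a median of 0.02, and the median of all genes was -0.0029. Whether clustered and other genes differ in this was not tested. All 5 oligodendrocyte markers on the arrays (Mbp, Mog, Mobp, Mag and Cnp) had lower values too, with a median difference of -0.16. So had all 5 oligodendrocyte precursor markers (-0.08) and all 4 olfactory bulb and neuroblast markers tested (-0.07). Endothelial markers were lower in 4 of 6 and thalamic in 4 of 5, while astrocyte markers were higher in 5 of 6, microglial in 4 of 6 and neuronal in 4 of 7. None of these markers passed the adjusted test. The part of such cells in the values of the clustered genes was not tested.

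**Figure D4:**
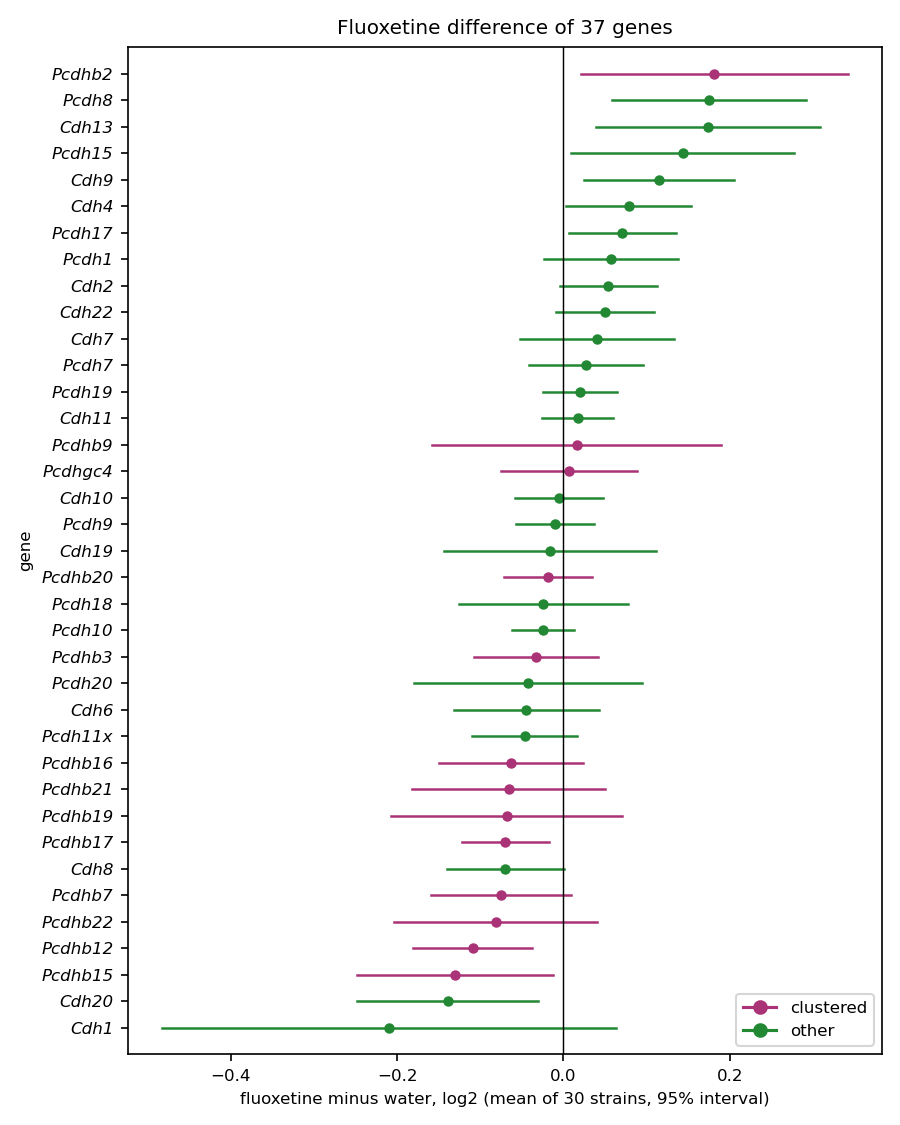
Fluoxetine minus water (x axis, log2) for the 37 genes, each the mean over 30 strains with its 95% interval from limma, clustered and other genes in separate colours. Most intervals include 0, the 11 that do not are those with an unadjusted p under 0.05, and no gene passed after adjustment.

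At the probe sets used, the smallest p-values belonged to Pcdhb12 and Pcdh8. The other probe set of Pcdh20 had a mean difference of -0.23 and was lower in 22 of 30 strains, against -0.04 at the one used. It was not tested by itself. Pcdhb12 in water was lowest at 6.21, had a median of 7.06 and was highest at 7.77, and in fluoxetine it was 5.83, 7.06 and 7.36, so the treatments overlapped over nearly their whole range. The difference was -0.11 (SE 0.04; 95% interval -0.18 to -0.04; limma adjusted p = 0.141), and it was lower in 20 of 30 strains. Pcdhb17, a further clustered gene, had a difference of -0.07 (SE 0.03, adjusted p = 0.180) and was lower in 20 of 30. Cdh20, a type II cadherin, had a difference of -0.14 (SE 0.05, adjusted p = 0.202) and was lower in 21 of 30, most in P/J at -1.10. Cdh9, a cadherin of synapse formation in the hippocampus, had a difference of 0.11 (SE 0.04, adjusted p = 0.204) and was higher in 19 of 30, most in P/J at 0.90.

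Pcdh8, an activity-regulated protocadherin that takes N-cadherin off synapses, in water was lowest at 10.84, had a median of 11.29 and was highest at 11.70, and in fluoxetine it was 10.98, 11.36 and 12.13. The groups overlapped, with the highest fluoxetine arrays above all water arrays. The difference was 0.18 (SE 0.06; 95% interval 0.06 to 0.29; limma adjusted p = 0.141), higher in 22 of 30 strains. The other probe set of Pcdh8 had a mean difference of 0.16 and was higher in 18 of 30 strains, and it was not tested by itself. Cdh13 in water was lowest at 8.75, had a median of 9.52 and was highest at 10.19, and in fluoxetine it was 8.84, 9.60 and 10.96. Its difference was 0.17 (SE 0.07; 95% interval 0.04 to 0.31; adjusted p = 0.199), higher in 17 of 30.

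In both genes 4 strains gave the 4 largest differences. Pcdh8 was higher by 1.14 in I/LnJ, 0.83 in DBA/2J, 0.81 in P/J and 0.75 in C58/J, and Cdh13 by 0.80, 0.88, 0.85 and 1.03 in the same order. Without these strains, left out after the values were seen, the limma difference was 0.07 for Pcdh8 (adjusted p = 0.678) and 0.06 for Cdh13 (adjusted p = 0.834), and 4 of the 37 genes (10.8%) had an unadjusted p under 0.05, against 7.26% of all genes. Pcdh15, a protocadherin known from the tip links of hair cells, was higher by 1.45, 0.39, 0.66 and 0.39 in these strains, and by 0.14 over all strains (SE 0.07, limma adjusted p = 0.289). Its differences in the other 26 strains ran from -0.32 to 0.62 (median -0.01), so these 4 strains did not give its 4 largest. Of 7 striatal markers fixed for the check, 5 were on the arrays and 4 passed the filter, with Drd2 at the floor. Their mean log2 difference was 0.26 in I/LnJ, 0.75 in DBA/2J, 1.09 in P/J and 0.50 in C58/J, and the summed striatal list ran from 1852 to 4152 in the water arrays and from 1861 to 4376 in the fluoxetine arrays. The 6 astrocyte markers averaged 0.01, 0.28, 0.66 and 0.68 in these strains and the 6 microglial markers 0.06, 0.38, 0.63 and 0.14, while the mean of the oligodendrocyte list was lower in all 4, at -0.80 to -0.08. In the other 26 strains the medians of the striatal, astrocyte, microglial and oligodendrocyte list means were 0.01, 0.05, -0.01 and -0.11. Their ranges there were -0.71 to 0.37, -0.09 to 0.33, -0.22 to 0.21 and -0.98 to 0.50 in the same order. The part of other tissue or cell types in the values of Pcdh8, Cdh13 and Pcdh15 was not tested.

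**Figure D5:**
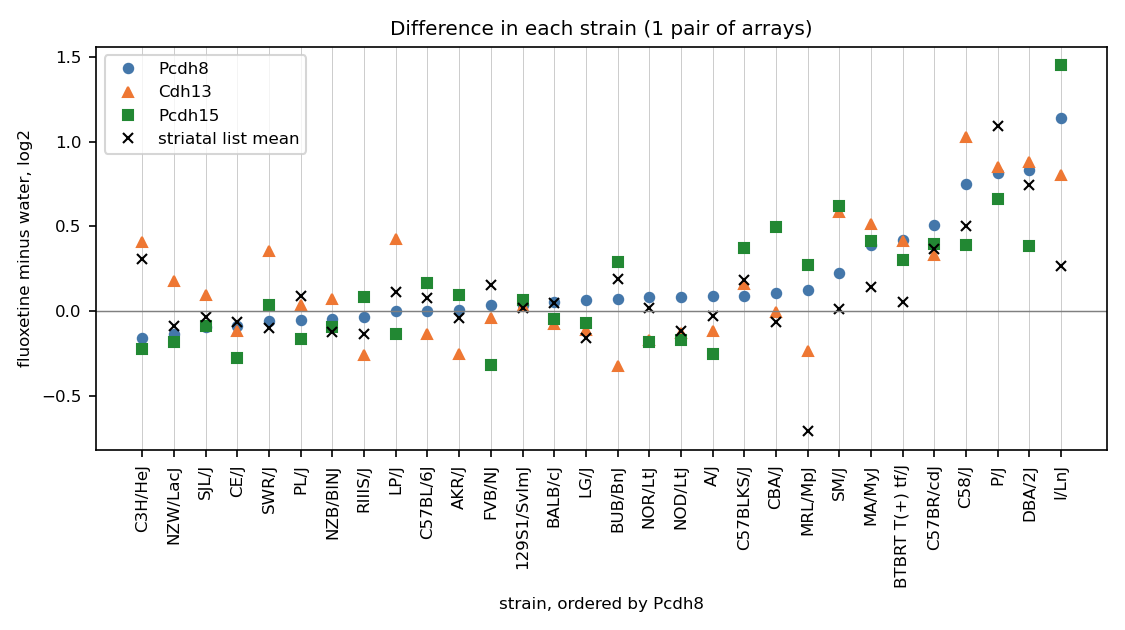
Fluoxetine minus water in each strain (y axis, log2; 1 pair of arrays a strain) for Pcdh8, Cdh13 and Pcdh15, and the mean over the 4 striatal markers tested, with strains ordered by Pcdh8. The 4 strains on the right, C58/J, P/J, DBA/2J and I/LnJ, have Pcdh8 differences of 0.75 to 1.14. The striatal mean is 0.26 to 1.09 in them and -0.71 to 0.37 in the other 26 strains, so the ranges overlap.

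The response to fluoxetine differed between families in none of the 37 genes after adjustment, and limma called none of the 11886. At an unadjusted p under 0.05, 2 of the 37 (5.41%) were called, near the 5.81% of all genes: Pcdhb9 (p = 0.00758 by limma, adjusted p = 0.819) and Pcdh15 (p = 0.0430 by limma, adjusted p = 0.845). The mean difference of Pcdhb9 was 0.31 in the 129S1-related strains and -0.44 in the Swiss strains, families that hold 5 of its 6 low strains. The largest difference of Pcdhb9 in a single strain was in AKR/J, a strain of no family, where it was higher by 2.11 in the fluoxetine array. It rests on 1 pair of arrays, with a low water value of 3.999.

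None of the listed genes that work with cadherins passed the fluoxetine test. Of 15 catenins and junction partners tested, the link from cadherins to actin, 8 were higher and 7 lower with fluoxetine. Of 13 other members of the cadherin superfamily, such as the flamingo-type Celsr and the Fat genes, 8 were higher and 5 lower with a median difference of 0.08. Of 13 partners in protocadherin signalling, among them Fyn, the WAVE complex and Ptk2b, a kinase that clustered protocadherins bind, 3 were higher and 10 lower with a median of -0.0062. Of 11 regulators of promoter choice in the clusters, including Ctcf, the cohesin subunits and Smchd1, 6 were higher and 5 lower with a median of 0.00038. At an unadjusted p under 0.05 by limma, 3 catenins and junction partners were higher and 1 lower, and 5 other superfamily members were higher. In the remaining lists 1 signalling partner was lower and no regulator was called. Over all genes 15.3% were called. Strain differences passed limma's test in 13 of 15, 13 of 13, 10 of 13 and 9 of 11 genes of these lists, beside the 88.3% of all genes. Between families only Cdhr1, a photoreceptor cadherin, was called among them.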

How the data were processed

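The values were 1 intensity per probe set and array. The authors deposited linear intensities made with GCRMA, per the submitters' processing notes; a version and a genome build are not given in the sources used here. This method subtracts background estimated from probe sequence, equalizes the arrays and combines the probes of a set, and it compresses low values. Intensities were transformed to log2 without a pseudocount (lowest value 2.07). Of 45101 probe sets, 34945 had 1 gene name, 932 several, 9160 none, and 64 were controls. The brightest probe set stood for each of 18193 genes, and 11886 passed the filter (log2 at least 4 in at least 6 arrays). All 55 symbols matched the reference table by Entrez number. The probe sets used for Pcdhb15 and Pcdh8 can bind near-identical transcripts.

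limma 3.58.1 in R 4.3.3 (lmFit, eBayes, Benjamini-Hochberg at 0.05 over all genes) tested strains (treatment as a covariate, both arrays of a strain as replicates), fluoxetine minus water (strain as a block), and 4 families over strain means and over differences. The fits were tested on simulated data. Pairing came from the strain label: 30 of 30 fluoxetine arrays and 30 of 30 water arrays correlated best with the other array of their strain (deviations from group means, r = 0.519 to 0.855). p-values reflect the spread between pools and strains, which may in part be technical. No source used here gives scan batches. Probe set pairs were tested with 100000 permutations (scipy 1.17.1), the smallest p possible being 1e-05. A split of strains was the widest gap between neighbouring water arrays of at least 0.5 with at least 3 strains on each side. Genes were named by rule: the 6 smallest fluoxetine p-values, the 12 widest and 4 narrowest ranges, the 5 brightest clustered and other genes, the 6 smallest family p-values and every split; Pcdh1, Pcdh15, Pcdh19, Pcdh20, Pcdhb15, Pcdhb19, Pcdhb22, Pcdhgc4, Cdh6, Cdh7, Cdh8 and Cdh22 were added after their values were seen. The genes, lists and rules were chosen with earlier results of these data known. Alternatives were quantile normalization, the mean of all probe sets, a filter at log2 6 or none, no block, single treatments and each strain left out. The number of arrays limits the precision.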

Additional observations from a re-analysis of the deposited data

How the results depend on the processing

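Over all genes, strain differences were called in 10419 under quantile normalization and 10027 with the mean of all probe sets. A filter at log2 6 gave 9891 and no filter 10697, out of different numbers of genes tested. In the same order, 33 of 37, 31 of 36, 30 of 32 and 32 of 37 cadherin genes were called. The smaller counts arose in part because fewer of the genes were tested. The fluoxetine test called 0 of the cadherin genes in each of these settings, where it called 8, 0, 8 and 1 of all genes. It also called 0 of the cadherin genes without the block for strain (0 of the 37 and 0 of all genes, with 2 of the 37 at an unadjusted p under 0.05 by limma, 5.41%, against 3.85% of all genes) and with each strain left out in turn. Only the fluoxetine test was run with and without the block. With it, limma called 7 of all genes, and 11 of the 37 had an unadjusted p under 0.05. Between families 2 cadherin genes were called with the mean of all probe sets (Pcdh18 and Pcdh11x, adjusted p = 0.0488 by limma), beside 285 of all genes. With each strain left out 1 to 4 were called, 4 without BTBRT T(+) tf/J and 3 without NOD/LtJ, beside 2.78% and 2.21% of all genes. Pcdh18 was called in every such fit (adjusted p 0.000374 to 0.00449 with a strain left out). A split of strains was found in 1 gene, Pcdhb9, with a gap of at least 1.0, and in 4 (Pcdhb9, Pcdhb3, Cdh19 and Pcdh17) when the fluoxetine arrays chose it. The share of all genes with a split, 3.32%, was computed only for the main rule on the water arrays. No such share was computed for the other rules, so their counts cannot be set against a background. The cause of the changes in the counts between settings was not tested. Levels near the floor, as of Pcdhb2, Cdh1, Pcdh1 and Pcdhb19, are limited by signal over background.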
